A study of Mus musculus with 12 samples.

Results

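Long RNA, the RNA that remains once short RNA has been removed and that is not selected on a poly(A) tail, was compared between wild-type mouse embryonic stem (ES) cells and ES cells deficient in Drosha. Each genotype is represented by 1 library. A row of the authors' gene table was taken as measured when its status was OK and the larger of both values reached 1 FPKM, a count of fragments set against transcript length and sequencing depth, as 13933 of 36883 rows did. The difference of a row is log2((Drosha-deficient FPKM + 1)/(wild-type FPKM + 1)), written below as the log2 difference, and a row counts as higher, or as lower, in Drosha-deficient cells where that difference reached 1 in size, which is 2-fold on this scale. A row that reached 1 FPKM in only 1 library could differ only toward that library. Of the measured rows 872 (6.26%) were higher and 960 (6.89%) lower, and their median log2 difference was -0.04. These shares and this median are the background for the groups of genes below, and rows up to 400 bases have shares of their own, given with the microRNA hairpins. With 1 library a genotype no difference has a replicate check, no p-value can be given, and a change of genotype cannot be told apart from a difference between these cultures or libraries.

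The series holds 12 samples, namely genomic DNA for methylation sequencing, mRNA, short RNA and total RNA of wild-type, Drosha-deficient and Dnmt1-deficient ES cells. The cells were grown in medium with fetal bovine serum and leukemia inhibitory factor (LIF), Trizol served for extraction, a kit for microRNA isolation parted long from short RNA, and libraries were made with a kit for small RNA. The labels of the RNA samples give the genotypes only as wild type and Drosha-deficient, with no allele, clone, strain or passage, and they name no feeder layer. For the DNA samples, the wild-type cells are AB1 of strain 129Sv/Ev and the Drosha-deficient ones were made from AB1. The long RNA table was matched to the samples titled total RNA by elimination, since the other tables fit the mRNA and short RNA titles.

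Drosha is the nuclear ribonuclease that releases microRNA hairpins from their primary transcripts, together with its partner Dgcr8. The hairpins are exported and cut again by Dicer1, and the mature microRNA guides an Argonaute protein to messages that match its seed, the stretch near its 5′ end. Drosha also cuts some messages directly, among them that of Dgcr8. Because long RNA keeps RNA without a poly(A) tail, the fraction shows histone messages, spliceosomal and nucleolar RNAs and the RNAs made by RNA polymerase III. Ordinary messages and primary microRNA transcripts are in it too.

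Both libraries carried the marks of ES cells. Of 13 ES cell markers 12 were measured, none was called either way, and their median log2 difference was -0.08. Summed over the list, the level was 1100 FPKM in wild-type and 1093 FPKM in Drosha-deficient cells. Pou5f1, the factor that defines the pluripotent state, stood at 262 and 260 FPKM, and Nanog, its partner, at 71.2 and 103 FPKM. Markers of other cell types were present at lower levels and differed between the libraries. Fibroblast markers, summed over the list, stood at 314 FPKM in wild type and 151 FPKM in Drosha-deficient cells. Of the 12 measured, 8 were lower and none was higher. Vim (111 and 54.6 FPKM) and Fn1 (102 and 87.8 FPKM) held most of both sums. Under 1 FPKM lay 9 of the 14 listed markers in the Drosha-deficient library against 2 in the wild-type one. Trophoblast markers summed to 144 and 27.2 FPKM with 4 of 5 measured lower. Krt18, a keratin of simple epithelia, held 96.7 and 15.1 FPKM of these sums. Neural and epiblast markers summed to 64.7 and 151 FPKM with 3 of 9 higher. Both measured markers of mesoderm and primitive streak were lower (7.15 and 2.77 FPKM summed over the list). All 9 listed ones were under 1 FPKM in Drosha-deficient cells, so both were measured only through wild type and could not be higher. The same holds for any other marker that reached 1 FPKM in wild type only. None of 4 measured primitive endoderm markers was called (118 and 85.2 FPKM summed over the list). In bulk RNA fewer cells of a type and less RNA per cell cannot be told apart.

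**Figure D1:**
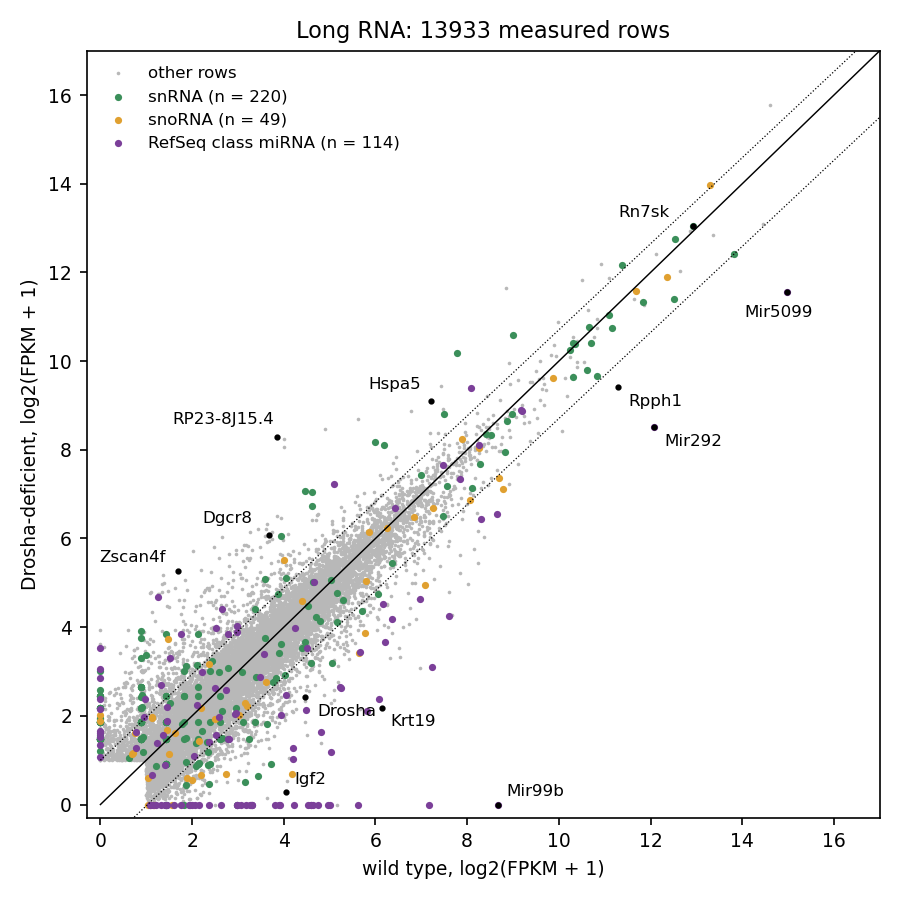
Each point is 1 of the 13933 measured rows of long RNA, with the wild-type level on the x axis and the Drosha-deficient level on the y axis, both as log2(FPKM + 1). The solid line marks equal levels and the dotted lines the 2-fold limits. Rows that RefSeq classes as miRNA lie mostly below the lower dotted line, many of them at 0 in Drosha-deficient cells, while Hspa5, Dgcr8 and Zscan4f lie above the upper one.

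The microRNA hairpins hold the lowest values of the whole comparison, so the sequences of those that carry it are given first. In the miR-290 cluster on chromosome 7, which supplies much of the microRNA of mouse ES cells, hairpins that lie side by side and share a seed went different ways. The mature sequences of the cluster are listed 5′ to 3′ from RefSeq (GRCm38.p6), with the seed, bases 2 to 8, in capitals.
miR-290a-3p: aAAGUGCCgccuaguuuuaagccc
miR-291a-3p: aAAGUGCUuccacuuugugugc
miR-292a-5p: aCUCAAACugggggcucuuuug
miR-291b-3p: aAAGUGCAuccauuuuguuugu
miR-293-3p: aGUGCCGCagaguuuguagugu
miR-294-3p: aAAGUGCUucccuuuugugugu
miR-295-3p: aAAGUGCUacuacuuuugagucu
By the mature arms that RefSeq lists, the seed AAGUGCU was shared by Mir291a, Mir294, Mir295, Mir302b and Mir302d among the measured hairpins. Hairpins whose arm with this seed is not listed there are not counted. Of these 5, 3 were lower and 1, Mir295, was higher.

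The hairpins themselves are what the rows of the table cover. Those with the lowest and the highest differences in the cluster are Mir292 (chr7:3219189-3219270, plus strand), Mir294 (chr7:3220641-3220724), Mir295 (chr7:3220773-3220841) and Mir291b (chr7:3219482-3219560), all on build GRCm38.p6. Capitals mark the mature arms that the RefSeq table lists.
Mir292 hairpin: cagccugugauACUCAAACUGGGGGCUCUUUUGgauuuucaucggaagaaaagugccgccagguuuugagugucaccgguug
Mir294 hairpin: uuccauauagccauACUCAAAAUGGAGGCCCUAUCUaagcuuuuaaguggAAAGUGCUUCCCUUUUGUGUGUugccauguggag
Mir295 hairpin: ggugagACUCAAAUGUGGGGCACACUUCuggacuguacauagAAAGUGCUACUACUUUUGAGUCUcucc
Mir291b hairpin: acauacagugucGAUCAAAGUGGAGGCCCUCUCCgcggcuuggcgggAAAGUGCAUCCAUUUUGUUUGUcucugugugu

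Outside that cluster, 6 of the lower hairpins with 40 reads or more in wild type are shown as a selection from chromosomes 17, 12, 6 and X, again with the seed in capitals. Of these 6, miR-92a and miR-363 of the miR-106a-363 cluster on chromosome X share a seed. Other lower hairpins share seeds too, such as Mir379 and Mir411 (AUGUAAC).
miR-99b-5p: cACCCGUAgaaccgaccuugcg
miR-543-3p: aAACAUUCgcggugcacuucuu
miR-127-3p: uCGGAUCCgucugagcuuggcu
miR-183-5p: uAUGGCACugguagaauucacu
miR-92a-3p: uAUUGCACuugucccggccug
miR-363-3p: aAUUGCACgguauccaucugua

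Drosha itself went from 21.2 FPKM in wild-type to 4.34 FPKM in Drosha-deficient cells, a log2 difference of -2.05. Dgcr8, its RNA-binding partner, went the other way, from 11.9 to 66.2 FPKM (2.38). The remaining 11 of 13 measured genes of hairpin cutting and export were called neither higher nor lower, and the median of the list was 0.13. Among them were Dicer1 (18.2 and 20.8 FPKM), the exporter Xpo5 (27.9 and 30.6 FPKM), the helicase Ddx5 (181 and 281 FPKM) and Tarbp2, a partner of Dicer1 (20.1 and 10.3 FPKM). Of 17 measured genes of the silencing complex 1 was higher, the scaffold Tnrc6a (9.09 and 21.3 FPKM), none was lower, and the median was 0.40. Mov10, a helicase of that complex, had 13.6 and 27.5 FPKM and a log2 difference of 0.97, just under the limit. Argonaute 2 (Ago2), the slicer among the Argonautes, had 7.64 and 7.32 FPKM. In the Lin28 and let-7 decay list 2 of 11 were higher, the helicase Ddx3x (163 and 332 FPKM) and Mycn (32.9 and 68.3 FPKM), with a median of -0.05.

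MicroRNA hairpin rows were lower more often than higher. Of 113 measured hairpin rows 62 were lower, 22 were higher and 29 were neither, and their median was -1.32. A hairpin row is short, and in rows up to 400 bases the FPKM could be turned back into reads. Within 0.02 reads, 98.7% of 912 wild-type values and 97.1% of 910 Drosha-deficient values under 60 reads were whole numbers, and by this estimate the libraries held 1.93e+07 and 2.33e+07 fragments. In all, hairpin rows had 25714 reads in wild-type and 3720 reads in Drosha-deficient cells, and 38 rows had none in Drosha-deficient cells while 10 had none in wild type. The row of Mir5099 alone held 18589 and 1366 of these reads, and without it the sums were 7125 and 2354. In short RNA Mir5099 had 151520 and 207566 FPKM and so was not lower there. The table does not tell reads of a primary transcript from reads of a cut hairpin or a mature microRNA.

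The value of a read depends on the length of the row and differed between both libraries, which bears on every short row. At a length of 80 bases, 1 read stood for 1.46 FPKM in wild-type and 1.77 FPKM in Drosha-deficient cells, so that an equal share of reads gave a log2 ratio of 0.54. That offset was 0.33 at 107 bases, 0.13 at 200 bases and 0.05 at 400 bases. Short rows were also called far more often than others, 22.3% higher and 27.4% lower of 975 rows, and in reads divided by the library's fragments, called scaled reads from here on, the shares were 20.4% and 35.2%. The count of hairpin rows was 12 higher and 71 lower in scaled reads, a way of scaling that was chosen after the data had been seen. Hence a short row called higher by a small margin may not be higher in scaled reads, and rows with few reads are imprecise.

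**Figure D2:**
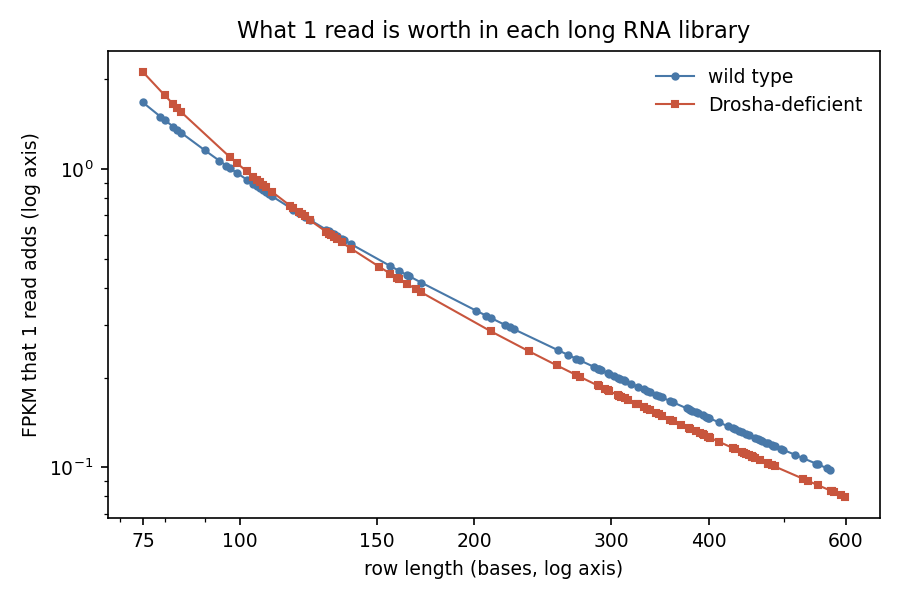
The FPKM that 1 read adds (y axis, log scale) is plotted against the length of the row in bases (x axis, log scale), with 1 point for each length at which it could be read from the table. The Drosha-deficient library lies above the wild-type one in the shortest rows and below it from 130 bases on.

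Rows with at least 20 reads in both libraries together give the firmest values. There were 35 of them, and 23 were lower, 3 higher and 9 neither, and the median stood at -2.34. In scaled reads 24 were lower and 1 was higher. Mir99b, on chromosome 17, had 209 reads in wild type (95% exact Poisson interval 182 to 239) and none in Drosha-deficient cells (0 to 3.69), and it had the lowest value of all 13933 rows. Such intervals cover counting error only. Another 5 hairpins went to 0 reads from 23 or more, namely Mir543 (98), Mir379 (33), Mir381 (27), Mir411 (25) and Mir328 (23), and 4 of these lie in the Dlk1-Dio3 region of chromosome 12. Mir183, of a cluster on chromosome 6, had 99 and 7 reads, and Mir148a had 28 and 2 reads. For all of these hairpins the wild-type interval lay above the Drosha-deficient one.

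In the Dlk1-Dio3 region, an imprinted domain that carries one of the largest microRNA clusters of the mouse, 33 hairpin rows were measured. Of these 17 were lower, 8 higher and 8 neither, and reads summed to 760 in wild-type and 176 in Drosha-deficient cells. Among the 10 with at least 20 reads, 9 were lower and none was higher, with 648 and 96 reads. Mir127, whose hairpin lies antisense to Rtl1, had 206 and 35 reads and Mir433 had 121 and 26. All 8 rows called higher had under 20 reads in total, such as Mir654 with 4 and 13 reads and Mir432 with 0 and 5. The hosts of the region were not lower: Mirg, which carries many of these hairpins, went from 9.45 to 30.6 FPKM and was higher, Rian had 138 and 191 FPKM and Meg3 had 48.3 and 52.6 FPKM.

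The miR-290 cluster did not move as one. Of its 7 hairpins 2 were lower, 2 higher and 3 neither. Mir292 went from 3113 to 221 reads (4320 and 365 FPKM), within 4297 wild-type and 1136 Drosha-deficient reads of the whole cluster. Mir294 went from 239 to 55 reads (316 and 85.3 FPKM). Of the rest, Mir293 had 399 and 267 reads, Mir290a 169 and 101 and Mir291a 221 and 167, all called neither. Mir295 had 134 reads (112 to 159) in wild-type and 244 reads (214 to 277) in Drosha-deficient cells, and Mir291b had 22 (13.8 to 33.3) and 81 (64.3 to 101). In scaled reads the log2 differences of Mir295 and Mir291b were 0.59 and 1.57, so only the latter stayed above the limit on that scale. The 2 hairpins printed above as higher and the 2 as lower therefore differ within 1 transcribed cluster.

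Smaller clusters had fewer reads. In the miR-106a-363 cluster on chromosome X, 3 of 5 rows were lower, namely Mir92-2 (132 and 6 reads), Mir363 (40 and 2) and Mir20b (25 and 3), and reads summed to 202 and 17. The higher one, Mir19b-2, had 0 and 4 reads. All 4 rows near 84 Mb on chromosome 8, Mir23a, Mir27a, Mir181c and Mir181d, were lower with 51 and 3 reads in sum. In the miR-302 cluster, the other family of the AAGUGCU seed, 3 of 4 were lower, but on only 12 and 2 reads in sum. In the miR-322-503 group 2 of 4 were lower with 27 and 4 reads.

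A few hairpin rows with many reads hardly differed in long RNA. Mir320, a hairpin known to be made without Drosha, had 128 reads (107 to 152) and 122 reads (101 to 146). Mir6236 had 853 and 707 reads and Mir5136 had 52 and 50 reads, though in mRNA the log2 difference of Mir5136 was -4.26, the widest gap in that direction. Mir484, also reported to be independent of Drosha, was lower, with 58 and 8 reads. In the mRNA libraries of the same genotypes, which share no library with long RNA, 65 of the hairpin rows were measured too, and there 34 were higher and 21 lower (median 1.09), against 12 higher and 36 lower (median -1.88) for the same rows in long RNA. Of these, 12 were lower in long RNA and higher in mRNA. Mir434 showed the widest gap of all rows with 5 FPKM in both tables, at -2.52 in long RNA and 4.80 in mRNA, followed among hairpins by Mir127 at -2.10 and 4.12.

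**Figure D3:**
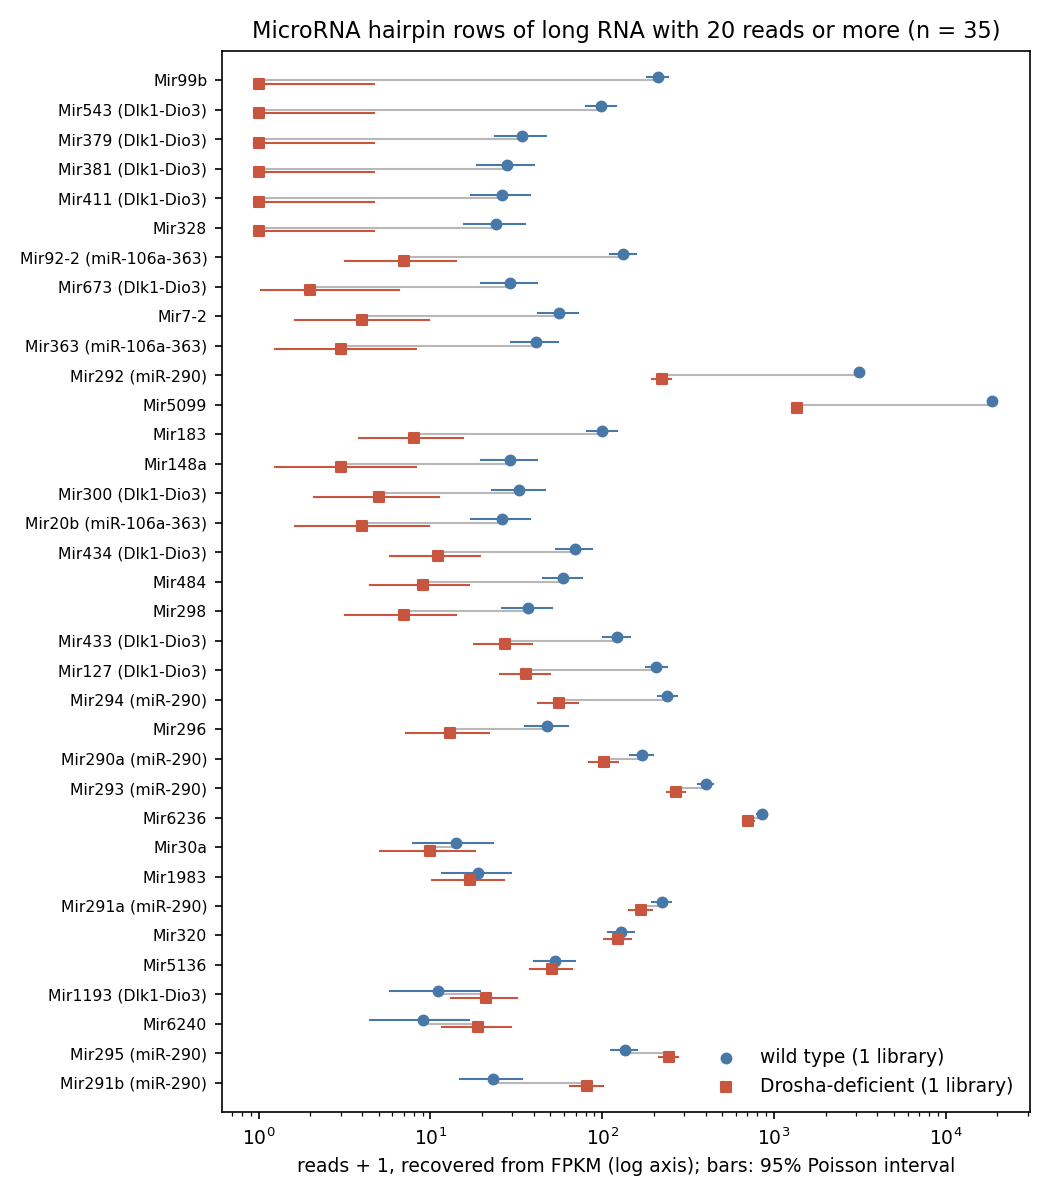
Reads in the 35 microRNA hairpin rows with at least 20 reads in both libraries together, plotted as reads + 1 on a log axis, with 95% Poisson intervals that cover counting error only. Wild type is shown as circles and Drosha-deficient cells as squares. Rows are ordered by their log2 difference in FPKM, from Mir99b at the top, with none in Drosha-deficient cells, to Mir295 and Mir291b at the bottom, which are higher.

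Primary transcripts that carry hairpins were mostly called neither, with 4 of 34 higher, 1 lower and a median of 0.13. Mir17hg, the host of the miR-17 to 92 cluster, had 25.6 and 91.0 FPKM, and Dleu2, the host of miR-15a and miR-16, had 3.10 and 9.82 FPKM. With Mirg and Nfyc (2.78 and 7.81 FPKM), a subunit of the factor that binds CCAAT boxes, these were the higher ones. Copz2, a coat protein gene with a microRNA in an intron, was the lower one (6.63 and 2.29 FPKM). Sfmbt2, a Polycomb gene whose intron holds a large microRNA cluster, had 6.25 and 6.01 FPKM in long RNA (-0.05), whereas in mRNA its log2 difference was -2.80. No source used here says whether counting used strand, so reads of a host and of RNA antisense to it cannot be told apart.

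RNAs made by RNA polymerase III and other structural RNAs did not move together. Of 12 measured 6 were lower, none was higher and the median was -1.02. All 4 rows of RNase P RNA, which trims the 5′ end of transfer RNAs, were lower. Rpph1 (chromosome 14) went from 2520 to 683 FPKM, or from 13265 to 4125 reads, Rprl3 from 1079 to 345 FPKM and Rprl2 from 203 to 18.5 FPKM, while Rprl1 was low in both (7.93 and 2.57 FPKM). These rows have similar sequences and may share reads. In short RNA, Rpph1 had 726 and 1934 FPKM and Rprl3 311 and 648 FPKM, while Rprl2 had 30.4 and 8.61 FPKM. Whether RNA shifted between the fractions was not tested. The RNA of RNase MRP, the related enzyme that cuts ribosomal RNA precursors, was called neither (Rmrp, 3696 and 2474 FPKM). Its proteins are shared with RNase P, and in the list of proteins bound to these RNAs, to 7SK and to telomerase RNA 1 of 25 was lower (Rpp21, 12.8 and 5.39 FPKM) and 1 was higher (Hexim1, which binds 7SK, 7.83 and 16.8 FPKM).

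Of the other RNAs of this kind some were called and some were not. Rn7sk, the 7SK RNA that keeps a kinase of transcription elongation in check, stood at 7811 and 8491 FPKM (42932 and 53647 reads), a log2 difference of 0.12. Terc, the template RNA of telomerase, had 96.2 and 115 FPKM. The Y RNAs, which bind the Ro protein, had 10521 and 7329 FPKM (Rny1) and 4459 and 5460 FPKM (Rny3). Vaultrc5, a vault RNA, was lower at 742 and 330 FPKM. A pair of 300-base rows on chromosome 12 that RefSeq classes as small cytoplasmic RNA went opposite ways: Gm26191 had 462 and 3187 FPKM (2264 and 17834 reads) and was higher, and Gm22405, which is far more abundant, had 22263 and 8686 FPKM (109031 and 48606 reads) and was lower. Whether both rows share reads was not tested. Gm24601 on chromosome 6 went from 299 to 42.7 FPKM and was lower.

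Several of these RNAs differed in the mRNA libraries in another way. In mRNA, from which selection on the tail removes most RNAs of this kind, Rn7sk had a log2 difference of 3.03, Rmrp of 2.45 and Gm24601 of 2.75, and the list as a whole had 7 of 13 higher and 2 lower. Levels of both tables were scaled separately, so only these differences are set side by side. Across all rows with 5 FPKM in both tables such gaps were rare: the differences in long RNA and mRNA lay at least 1 apart on the log2 scale in 213 of 8378 rows (2.54%). Among the 8 rows with the largest gaps toward mRNA were Gm23143, Gm22265 and Gm23287, all classed as small nuclear RNA.

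The RefSeq class of small nuclear RNA holds the RNAs of the spliceosome and also 7SK (Rn7sk) and U3 (Rnu3a). It gave 76 higher and 35 lower of 220 rows, with a median of 0.44. In scaled reads the counts were 68 and 48 and the median 0.17. Most of these rows are sparse copies. The 122 rows of 107 bases, the length of U6, had 52 higher and 13 lower with a median of 0.99, but a median of 4 reads in both libraries together. Rows of the length of U2, 191 bases, were better covered, with 2 of 10 higher, none lower, a median of 0.03 and 34645 and 38145 reads in sum, and with 2 higher and 1 lower in scaled reads. Rnu2-10 had 1268 and 1353 FPKM, Rnu5g 1210 and 1221 FPKM, Rnu12 503 and 448 FPKM and Rnu11 469 and 401 FPKM, none of them called.

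Copies of U1 differed from each other. Rnu1b1 went from 23.6 to 131 FPKM and Rnu1b6 from 14.3 to 65.8 FPKM, both higher, while the more abundant Rnu1b2 had 456 and 246 FPKM. The copies share most of their sequence, so the assignment of reads to single copies is uncertain. Gm23143, a row of 116 bases on chromosome 4 classed as small nuclear RNA, was lower in long RNA, from 14426 to 5447 FPKM (19471 and 7238 reads), and its log2 difference in mRNA was 5.36. For the U5 row Rnu5g the values were 0.01 in long RNA and 5.38 in mRNA.

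Small nucleolar RNAs, which guide the modification of ribosomal RNA, were lower more often than higher, with 4 higher and 16 lower of 49 rows and a median of -0.45. In scaled reads the counts were 2 and 22. These are short rows, and among all rows up to 400 bases 22.3% were higher and 27.4% lower, or 20.4% and 35.2% in scaled reads. The best covered ones were called neither. Snord104 had 10055 and 16184 FPKM, Snord118, the U8 RNA of ribosomal RNA processing, 5250 and 3836 FPKM, and Snord13 3262 and 3062 FPKM. Rnu3a, the U3 RNA that is needed for the first cuts of ribosomal RNA, had 5884 and 6865 FPKM. Scarna13, which guides modification in Cajal bodies, was lower (146 and 58.0 FPKM). The 21 measured hosts of small nucleolar RNAs gave no call in either direction with a median of -0.02, and the most abundant, Gas5, had 7419 and 7875 FPKM. Among short rows side by side on chromosome 9 stood 1 of the most abundant, Gm24299 (chr9:15314074-15314144), at 25072 and 56405 FPKM (13266 and 22449 reads). It was called higher, as was Gm24357 (1934 and 4671 FPKM), but in scaled reads their log2 differences were 0.49 and 0.64.

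**Figure D4:**
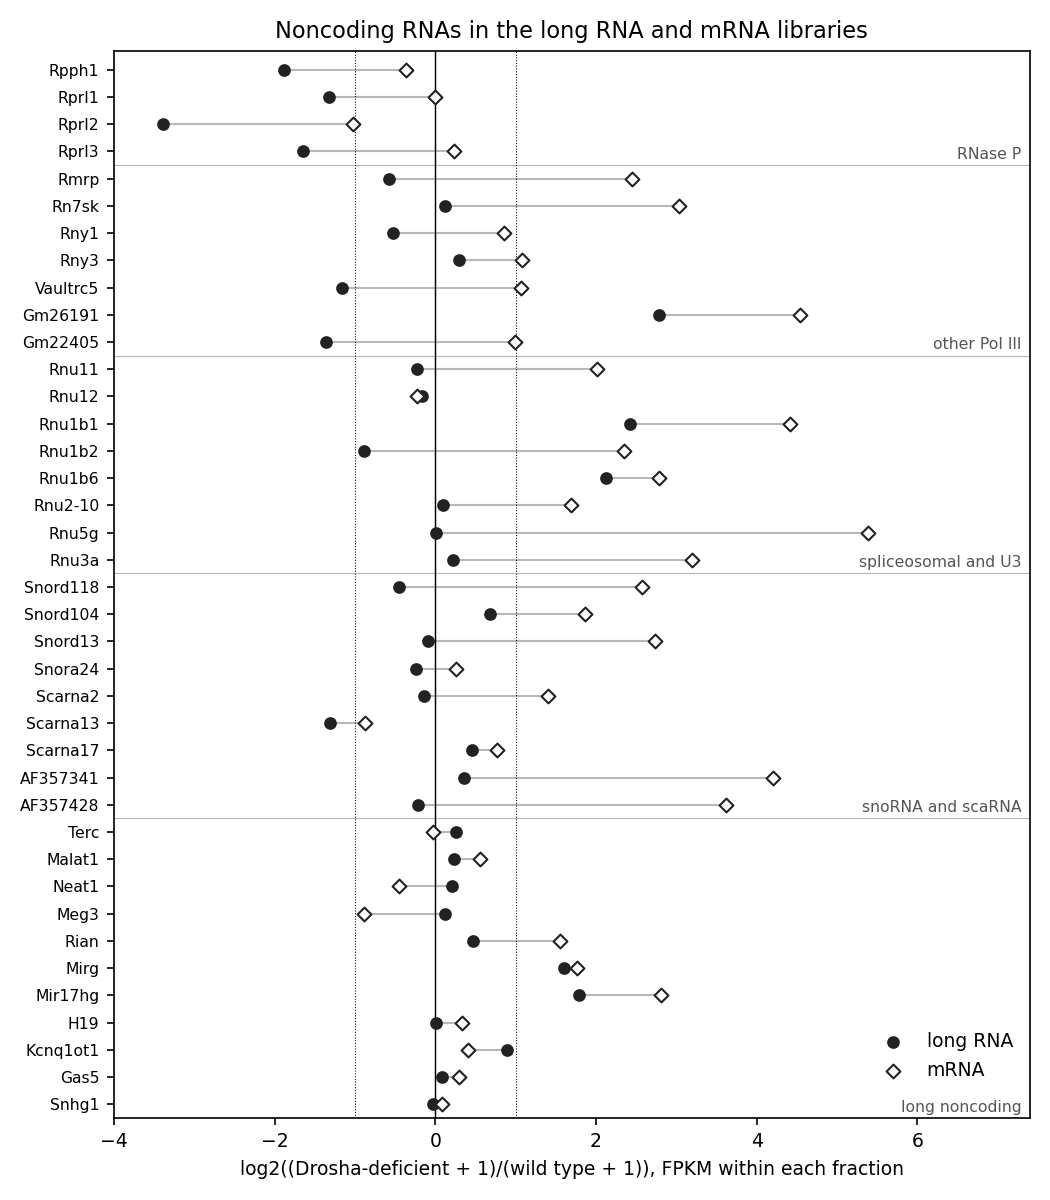
Log2 differences between Drosha-deficient and wild-type cells for single noncoding RNAs in long RNA (filled circles) and in mRNA (open diamonds), grouped by class, with dotted lines at the 2-fold limits. RNase P RNAs lie left of the lower limit in long RNA, and Rn7sk, Rmrp, Rnu5g and most small nucleolar RNAs lie near 0 in long RNA and to the right of it in mRNA.

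Replication-dependent histone genes make messages that end in a stem-loop in place of a poly(A) tail, so long RNA is the fraction that holds them. All 68 listed rows, a few of them pseudogenes, were measured, 18 were lower and 7 higher, and the median was -0.45. Over all measured rows the shares were 6.89% lower and 6.26% higher, and over protein-coding rows 4.39% and 3.31%. Part of the histone rows are no longer than 400 bases. Of all rows up to that length 27.4% were lower and 22.3% higher, or 35.2% and 20.4% in scaled reads. The most abundant members were called neither: Hist1h1a, a linker histone, had 738 and 420 FPKM and Hist1h4d, a histone H4 gene, 585 and 518 FPKM. The lowest were Hist1h4m (282 and 53.4 FPKM), Hist3h2ba (46.2 and 11.5 FPKM) and Hist1h2aa (36.3 and 10.7 FPKM), and the linker histone Hist1h1e was lower as well (100 and 38 FPKM). The highest were rows of the H2A family, Hist1h2aj (1.19 and 19.24 FPKM), Hist2h2aa1 (7.74 and 56.9 FPKM) and Hist1h2ap (2.38 and 18.5 FPKM). Hist2h2aa2, a near-identical neighbour of Hist2h2aa1, was lower at 46.0 and 17.4 FPKM. RefSeq classes Hist1h2aj as a pseudogene, and Hist3h2bb-ps (lower) and Hist1h2al (called neither) as transcribed pseudogenes. Genes of this family share reads, so single values are uncertain. The mRNA libraries had 15 higher and 1 lower among 56 of these rows (median 0.42). The 11 measured variants with a poly(A) tail had no call and a median of -0.55, and of 15 genes that process histone messages 1 was lower, the scaffold Sympk (29.6 and 13.5 FPKM), while Slbp, which binds the stem-loop, had 51.5 and 36.2 FPKM.

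Long noncoding RNAs with a nuclear role were present in long RNA and mostly called neither. Malat1, a nuclear speckle RNA, had 1272 and 1494 FPKM and Neat1, the scaffold of paraspeckles, 18.6 and 21.6 FPKM. Of 17 measured, 3 were higher and 1 was lower (median 0.21). Nespas, antisense RNA of the Gnas locus, was higher (5.26 and 19.18 FPKM) and Firre, an RNA of the X chromosome, lower (14.2 and 5.94 FPKM). Kcnq1ot1, the long RNA that silences its imprinted neighbours, had 2.997 and 6.396 FPKM, a log2 difference of 0.89.

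The 2-cell-like state is known from a few cells of an ES culture that resemble the cleavage embryo, and its genes held many of the highest protein-coding values. Among its 28 measured genes there were 26 higher and 0 lower, and the median was 2.15. Listed genes under 1 FPKM in both libraries are not counted, so these values partly follow from the rule for measured rows. Zscan4f, of a family that guards telomeres, went from 2.25 to 37.8 FPKM, Zscan4d from 1.73 to 21.3 FPKM and Gm5662 from 1.56 to 35.2 FPKM. Members that belong to smaller families were higher as well, with Tmem92 at 0.533 and 6.80 FPKM, the arginase Arg2 at 0.452 and 5.42 FPKM and the zinc finger gene Zfp352 at 0.278 and 1.804 FPKM. Each of these was under 1 FPKM in wild type, so it was measured only through Drosha-deficient cells and could not be lower. Eif1a, a translation factor whose copies mark the state, was called neither (61.9 and 66.5 FPKM), as was Zfp809 (10.4 and 17.6 FPKM). With a pseudocount of 5 FPKM 13 of the 28 were higher. A row of 6 neighbouring genes on chromosome 10 (chr10:104142987-104196522), Gm6763, Gm8764, Gm21304, Gm21312, Gm20765 and Gm4340, were each higher by 13.6-fold to 23.5-fold in FPKM, and these near copies may share reads. Pramel7, which is tied to low DNA methylation in ES cells, was higher as well (0.446 and 6.95 FPKM).

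Pluripotency genes were called neither for the most part, with 6 of 29 higher, none lower and a median of 0.20. The higher ones were Dppa2 (5.73 and 19.12 FPKM), Fbxo15 (85.9 and 227 FPKM), Prdm14 (2.65 and 7.93 FPKM), Gdf3, Nr0b1 and Mycn, and 3 of the list were higher with a pseudocount of 5 FPKM. Genes of the primed epiblast and early neural tissue had 4 of 18 higher, none lower and a median of 0.66. The forkhead factor Foxd3 went from 0.750 to 10.6 FPKM, the homeobox factor Otx2 from 7.92 to 39.9 FPKM, Zic2 from 2.79 to 13.05 FPKM and Pax6 from 1.46 to 4.97 FPKM. In the Nodal list the secreted inhibitors Lefty1 (67.5 and 173 FPKM) and Lefty2 (38.3 and 83.95 FPKM) and the ligand Gdf3 (16.45 and 38.6 FPKM) were higher out of 17, with none lower and a median of 0.21. Nodal itself had 12.2 and 22.02 FPKM.

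Other signalling lists held no higher member and some lower ones. In the LIF list 3 of 18 were lower, the feedback inhibitor Socs3 (14.7 and 5.79 FPKM) and the kinases Pim3 (36.8 and 16.6 FPKM) and Pim1 (27.2 and 12.99 FPKM), while the transducer Stat3 had 19.7 and 15.8 FPKM. In the FGF list 4 of 22 were lower, the factor Etv4 (10.4 and 1.76 FPKM), the phosphatase Dusp4 (15.8 and 3.97 FPKM), the ligand Fgf8 and the inhibitor Spry4. The ligand Fgf4 (36.4 and 64.3 FPKM) and Etv5, a close relative of Etv4 (26 and 49.7 FPKM), were called neither but lay above 0. Among 9 measured Wnt targets and primitive streak genes 4 were lower, T (2.88 and 0.0882 FPKM), Fgf8, the ligand Wnt3 and the factor Sp5. In the BMP list 3 of 15 were lower, Tgfb1 (4.67 and 1.11 FPKM), Nog and Bmp7. All of these but Tgfb1 were under 1 FPKM in Drosha-deficient cells, so they were measured only through wild type and could not be higher. With a pseudocount of 5 FPKM no member of the LIF, Wnt and BMP lists was called, and 2 of the FGF list. All 9 listed markers of mesoderm and streak were under 1 FPKM in the Drosha-deficient library, against 7 in the wild-type one, and their part in these differences was not tested.

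Chaperones of the endoplasmic reticulum, which fold secreted proteins, were called higher or not at all, with 5 of 23 higher, none lower and a median of 0.41. Hspa5, the chaperone that also restrains the sensors of misfolded protein, went from 147 to 545 FPKM (1.89). Calr, a calcium-binding chaperone of glycoproteins, went from 177 to 485 FPKM, Pdia4, a disulfide isomerase, from 52.6 to 130 FPKM, and the cochaperones Dnajb9 from 5.86 to 16.5 FPKM and Dnajb11 from 28.9 to 62.6 FPKM. Pdia6 (145 and 280 FPKM, 0.95) and Xbp1 (29.7 and 49.1 FPKM, 0.71), the factor of the unfolded protein response, stayed under the limit. A pseudocount of 5 FPKM left 3 of the 23 higher. Promoters of this kind of gene are known for the endoplasmic reticulum stress element, CCAAT and CCACG with any 9 bases between them, which was searched on both strands of the 250 bases before the gene start. It was in 7 of the 19 list members that have an entry in the RefSeq promoter table and in 0.113% of all 32851 promoters. The 7 were Calr, Canx, Creld2, Dnajc3, Hspa5, Pdia6 and Syvn1, of which Hspa5 and Calr were higher. Their windows are printed on the strand of the gene, chr2:34771840-34772089 for Hspa5 (plus strand) and chr8:84846932-84847181 for Calr (minus strand), both GRCm38.p6, with the element in capitals, in Calr on the opposite strand.
Hspa5 promoter: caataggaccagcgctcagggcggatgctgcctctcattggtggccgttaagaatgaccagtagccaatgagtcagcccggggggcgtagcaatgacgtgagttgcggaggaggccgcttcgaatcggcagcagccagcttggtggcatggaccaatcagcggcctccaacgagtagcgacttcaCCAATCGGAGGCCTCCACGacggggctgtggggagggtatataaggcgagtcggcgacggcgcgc
Calr promoter: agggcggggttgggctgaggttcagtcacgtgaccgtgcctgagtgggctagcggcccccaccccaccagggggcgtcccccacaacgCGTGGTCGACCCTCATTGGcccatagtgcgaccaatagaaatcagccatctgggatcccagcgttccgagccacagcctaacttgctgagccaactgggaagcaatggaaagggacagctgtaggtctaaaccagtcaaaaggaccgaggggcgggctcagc
A match is a string of letters and not evidence of binding.

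Sensors of the unfolded protein response and targets of ATF4, the factor of the amino acid response, lay on the other side. Of 33 measured 8 were lower and 1 higher, with a median of -0.60. Asns, which makes asparagine, went from 145 to 58.3 FPKM and Psat1, of serine synthesis, from 110 to 50.03 FPKM. Chac1, which degrades glutathione, went from 4.26 to 0.656 FPKM, and Pycr1, of proline synthesis, from 11.1 to 3.51 FPKM. The higher one was the arginine transporter Slc7a3 (25.9 and 52.9 FPKM). Atf4 had 63.7 and 49.2 FPKM and its partner Ddit3 6.02 and 3.13 FPKM, both called neither. At a pseudocount of 5 FPKM 3 of the 33 were lower and none was higher. The motif TTGCATCA, the core of the amino acid response element, was in 5 of 28 promoters of the list (Aars, Chac1, Nupr1, Pycr1 and Vldlr, 3 of them lower) and in 0.791% of all promoters. Cytosolic heat shock genes had 3 of 22 higher and 1 lower with a median of 0.24, led by the inducible Hspa1b (1.11 and 12.3 FPKM) and Hspa1a (0.443 and 5.26 FPKM), which are near-identical to each other. Hsp90aa1, the most abundant, had 1006 and 1877 FPKM (0.90), and Cryab, a small heat shock protein, was lower (3.51 and 0.917 FPKM). With that pseudocount 1 heat shock gene was higher and none lower.

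Glycolysis was the metabolic group with the most lower members. Of 27 measured genes, among them transporters and hypoxia targets, 12 were lower and none was higher, with a median of -0.82. Pgk1, phosphoglycerate kinase, went from 106 to 20.7 FPKM and Pgam1, the next enzyme of the pathway, from 115 to 35.6 FPKM. Ldha, which makes lactate, went from 326 to 154 FPKM, and the glucose transporter Slc2a3 from 402 to 187 FPKM. The growth factor Vegfa, a target of the hypoxia factors, went from 8.56 to 1.53 FPKM. The most abundant enzymes, Pkm (654 and 392 FPKM) and Aldoa (413 and 249 FPKM), stayed above the lower limit. The core of the hypoxia response element, ACGTG, was in 14 of 26 promoters of the list, 8 of them of lower genes, and in 16.6% of all promoters, since so short a string is common. Several glycolytic genes have processed pseudogenes that may share their reads.

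Cholesterol synthesis had 5 of 24 lower, none higher and a median of -0.84. Msmo1, a sterol oxidase, went from 110 to 31.0 FPKM, Idi1, which makes isoprenoid units, from 24.5 to 8.86 FPKM and Dhcr7, which makes cholesterol in the last step, from 12.1 to 4.32 FPKM. Hmgcs1, of an early step, had 138 and 72.6 FPKM (-0.91) and was called neither. Of the 24 genes 23 lay below 0, and with a pseudocount of 5 FPKM 2 were lower. The sterol response element, searched as ATCAC followed at once by CCCAC, was in none of the 16 promoters with an entry and in 0.0731% of all.

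Part of the genes of fibroblasts and other adherent cells were lower, beside the fibroblast markers given above. Among 21 measured fibroblast and mesenchymal genes 9 were lower, none was higher and the median was -0.78. Col1a2 and Col1a1, which make type I collagen, had 12.9 and 0.0162 FPKM and 11.3 and 0.111 FPKM, and the matrix protein Postn had 2.29 and 0.00299 FPKM. Each of these was under 1 FPKM in Drosha-deficient cells and so was measured only through wild type. Fn1, fibronectin, which ES cells also express, had 102 and 87.8 FPKM. Among 19 contractile genes 7 were lower and none higher, led by smooth muscle actin Acta2 (15.9 and 0.449 FPKM) and Tagln (49.8 and 3.48 FPKM), with a median of -0.94. Of 20 genes for S100 proteins, annexins and galectins 10 were lower, such as S100a6 (79.2 and 8.86 FPKM), Anxa5 (31.5 and 3.92 FPKM) and Lgals1 (75.9 and 14.9 FPKM), and 2 galectins were higher, Lgals4 (0.430 and 5.65 FPKM) and Lgals9. With a pseudocount of 5 FPKM 3 fibroblast, 4 contractile and 6 S100, annexin or galectin genes were lower and none was higher. The part that a changed share of fibroblasts has in these values was not tested.

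Some epithelial and extraembryonic genes were lower and none of the listed ones was higher. Krt19, a keratin of simple epithelia, went from 69.7 to 3.54 FPKM and had the lowest log2 difference of all protein-coding rows (-3.96). The keratins Krt18 (96.7 and 15.1 FPKM) and Krt8 (24.5 and 5.44 FPKM) were lower as well. In the list of keratins and junctions 7 of 21 were lower and none higher, with a median of -0.64, while the adhesion genes of ES cells Cdh1 (86.8 and 88.2 FPKM) and Epcam (92.0 and 86.5 FPKM) hardly differed. Of 7 trophoblast genes 5 were lower, among them the factor Tfap2c (16.9 and 4.57 FPKM) and the imprinted Peg10 (75.6 and 21.7 FPKM), with a median of -1.69. Of 10 primitive endoderm genes 2 were lower, Krt19 and the collagen Col4a2 (5.54 and 1.203 FPKM), and the factor Gata4 had 1.22 and 1.02 FPKM. Immediate early genes, which answer growth factors within minutes, had 6 of 19 lower, such as Fos (17.2 and 3.31 FPKM) and Ier3 (8.06 and 1.68 FPKM), none higher and a median of -0.73. With a pseudocount of 5 FPKM 1 of these 19 remained called. Interferon response genes had 7 of 23 lower and none higher with a median of -0.58, led by Bst2 (64.6 and 17.7 FPKM), Isg15 and B2m, the light chain of class I molecules (37.2 and 13.8 FPKM). A pseudocount of 5 FPKM left 2 of these 23 lower.

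Genes that write DNA methylation, the subject of the series title, differed little in long RNA. Of 20 measured methyltransferases and cofactors 2 were higher, none was lower and the median was 0.28. Dnmt1, which copies methylation at replication, had 49.5 and 56.4 FPKM, and Uhrf1, which brings it to DNA, had 64.5 and 45.1 FPKM. Dnmt3a (24.5 and 35.7 FPKM) and Dnmt3b (38.2 and 70.2 FPKM), which set new methylation, and their cofactor Dnmt3l (56.1 and 38.4 FPKM) were called neither. The higher ones were Mat2a, which makes the methyl donor (32.4 and 79.5 FPKM), and Zfp57, which protects methylation at imprinted sites (46.0 and 112 FPKM). Among 12 demethylation genes Gadd45g was higher (6.35 and 23.3 FPKM) and Gadd45a lower (21.4 and 9.95 FPKM). Of 22 genes of H3K9 methylation and KAP1 silencing Zfp57 was the 1 higher, and Trim28, which is KAP1, had 548 and 761 FPKM. In the Polycomb list Bmi1 was higher (1.56 and 8.13 FPKM) and Pcgf5 lower (11.4 and 4.80 FPKM) of 27.

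Genes whose silencing depends on methylation were mostly called neither. Of 26 germline genes 2 were higher, Rpl10l (10.1 and 54.8 FPKM) and the helicase D1Pas1 (1.98 and 5.31 FPKM), none was lower and the median was -0.04. Of 40 imprinted genes 2 were higher, Nespas and Mirg, and 7 lower, with a median of -0.15. Igf2, the fetal growth factor, went from 15.6 to 0.214 FPKM, while H19, its reciprocally imprinted neighbour on distal chromosome 7, had 26.4 and 26.5 FPKM. Mrpl23, a mitochondrial ribosomal protein gene next to H19, was lower as well (27.2 and 1.61 FPKM), and Cd81 farther along had 83.0 and 83.3 FPKM. Grb10, a brake on growth factor signalling, was lower at 18.4 and 4.85 FPKM and Phlda2, a placental growth regulator, at 26.2 and 7.88 FPKM. Rhox5, an X-linked homeobox gene, was lower at 33.4 and 4.96 FPKM.

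Messages that other studies have reported as targets of miR-290 or miR-302, whose seed is printed above, had 4 of 27 higher and 2 lower with a median of 0.44. Bcl11a, a zinc finger factor, went from 0.293 to 3.55 FPKM and Ei24, a gene of the p53 response, from 33.7 to 71.3 FPKM, beside Lefty1 and Lefty2. Rhoc, a small GTPase, was lower (33.0 and 10.4 FPKM), as was Txnip, a regulator of glucose uptake (264 and 129 FPKM). Reported let-7 targets had 1 of 25 higher and 1 lower with a median of -0.22. Cell cycle genes had Ccne2, a cyclin of S phase entry, higher (9.68 and 22.9 FPKM) and Cdkn1c, an inhibitor of cyclin kinases, lower (10.6 and 4.35 FPKM) of 35, with a median of -0.11. Of 26 p53 targets 1 was higher and none lower.

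Ribosomal protein genes were scattered, with 9 of 82 higher, 12 lower and a median of -0.33. The list holds a few copies that RefSeq classes as pseudogenes, Rps3a2 (14.2 and 86.6 FPKM, the highest of the list), Rps12l1 and Rps4l. Lower members were abundant, such as Rplp2 (550 and 205 FPKM), Rpl10a (299 and 70.9 FPKM) and Rps16 (229 and 48.4 FPKM), and higher ones were low in wild type, such as Rps29 (7.27 and 35.6 FPKM), Rpl11 (12.4 and 69.9 FPKM) and Rps27 (5.76 and 26.8 FPKM). Processed pseudogenes copy these genes many times, and reads can be placed on either. In 252 pairs of a measured pseudogene and its measured parent, the pseudogene was higher in 56 and lower in 36, and the parent higher in 11 and lower in 40. The differences had opposite signs in 118, the smaller part of the pairs. Of all 1519 rows that RefSeq classes as pseudogenes 17.1% were higher and 13.7% lower. Whether the rows of a pair share reads was not tested. Rpl12 went from 234 to 86.2 FPKM while Rpl12-ps1 went from 3.90 to 27.8 FPKM, and Rps29-ps went from 18.1 to 3.44 FPKM while Rps29 was higher. Mitochondrial ribosomal proteins had none of 71 higher and 3 lower with a median of -0.30, and nuclear genes of the respiratory chain 2 of 73 higher and 7 lower with a median of -0.36.

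The highest log2 difference of the table, 4.45, lay outside any list. It belonged to RP23-8J15.4, 1 of 5 rows at chr1:24612775-24616197, a nuclear stretch that resembles mitochondrial DNA. RP23-8J15.4 had 13.4 and 314 FPKM, and RP23-8J15.1 (15.0 and 300 FPKM), RP23-8J15.2 (15.1 and 265 FPKM) and RP23-8J15.3 (3.03 and 51.3 FPKM) were higher as well. RP23-8J15.5, their neighbour, had 194 and 195 FPKM. Reads of mitochondrial RNA can be placed on such a stretch. In the mitochondrial genome itself 2 of 8 rows were higher and none lower, both short transfer RNAs, mt-Tq (1444 and 3624 FPKM) and mt-Ts1 (6.03 and 48.9 FPKM), while mt-Co1, a subunit of the last enzyme of the respiratory chain, had 1352 and 931 FPKM. In so short a row the worth of a read matters: at 70 bases an equal share of reads gave a log2 ratio of 0.70. The log2 differences of mt-Tq and mt-Ts1 were 1.33 and 2.83 in FPKM and were not computed in scaled reads.

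The length of a protein-coding gene in the genome went along with its difference. Median log2 differences were -0.19 for 1235 genes under 5 kb, -0.12 from 5 to 20 kb, -0.01 from 20 to 50 kb, 0.06 from 50 to 150 kb and 0.11 for 667 genes over 150 kb. Of the shortest genes 7.85% were higher and 10.9% lower, and of the longest 5.40% and 1.35%. In mRNA the medians of the same groups ran from -0.21 to 0.35.

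Among single genes outside these lists, the highest protein-coding values with at least 5 FPKM in the larger library included the peptidase Dpp4 (1.30 and 16.6 FPKM), the receptor Megf11 (0.925 and 12.2 FPKM), the autophagy receptor Calcoco2 (7.51 and 52.3 FPKM), the muscle protein titin (Ttn, 1.03 and 11.7 FPKM) and Notum, which inactivates Wnt ligands (3.58 and 25.1 FPKM). The lowest included Fabp3, a fatty acid carrier (91.1 and 9.05 FPKM), Cisd3, a mitochondrial iron-sulfur protein (16.3 and 1.06 FPKM), and Fau, which encodes a ribosomal protein fused to a ubiquitin-like one (229 and 36.1 FPKM). The authors' deposited table gives 19 of the measured rows a q-value under 0.05, each of 0.0425, and they include Mir99b, Mir543, Mir292, Mir5099, Pgk1, Hspa5, the arrestin Arrdc3 and the nuclear import factor Kpna2. These q-values rest on 1 library a genotype and compare the libraries. Of the rows higher in long RNA that were also measured in mRNA, 610 of 756 were higher there and 4 lower, and of the lower ones 549 of 818 were lower there and 39 higher. In mRNA itself 8.64% of 14752 measured rows were higher and 7.93% lower.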

How the data were processed

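Per the submitters' processing notes, the tools were bcl2fastq 1.8.4, TopHat2 2.0.10 and Cufflinks 2.1.1 on mm10 (GRCm38), and Cuffdiff gave the FPKM of 1 library for each genotype in the deposited tables. No source used here gives the annotation, the scaling between libraries or the use of strand. The q-values in the authors' deposited table are Cuffdiff's, with 1 library a side. The tables for long RNA, mRNA and short RNA were normalized separately, so differences are set side by side and levels are not. The depth of a library is not given, and it was estimated for short rows only, from the FPKM that 1 read adds in rows up to 400 bases.

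From the FPKM values, log2((Drosha-deficient + 1)/(wild type + 1)) was computed with Python 3.11.15, numpy 2.4.6 and pandas 2.3.3, with scipy 1.17.1 for exact Poisson intervals and matplotlib 3.10.9 for plots. Single gene names were matched to RefSeq (GRCm38.p6) for RNA classes and sequences, and 12973 of 13590 (95.5%) matched. Of the 113 microRNA hairpin rows 109 matched a RefSeq hairpin. Rows called together from several genes (343) were kept in counts and named nowhere. The scripts were tested on simulated data.

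Members and gene lists were chosen with earlier results of these data known. Genes were named by a rule that takes genes of the microRNA and methylation pathways, the ends of the table among rows of at least 5 FPKM, up to 4 called members at each end of a list with its 2 most abundant members, and rows among the 8 each way with the widest gap between long RNA and mRNA. The text names only part of what this rule takes. Other members named for their role in a pathway, the short rows on chromosome 9 and those of mitochondrial likeness on chromosome 1 were chosen after their values were seen.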

Additional observations from a re-analysis of the deposited data

How the results depend on the processing

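With 1 library a genotype no replicate could be left out, and no value has a replicate error. A pseudocount of 5 FPKM gave 315 higher and 335 lower rows, a pseudocount of 0.1 FPKM gave 1254 and 1592, and a larger value of at least 5 FPKM gave 542 and 647. The other settings (no minimum, a mean of at least 1 FPKM, the median set to 0, all rows except failed ones, rows with several names left out) kept both counts within 1.5 times of 872 and 960. The pseudocount of 5 FPKM moved 34 of 71 results, mostly lists of low genes. In the table of mRNA, 2 lists lay on the other side: 62 of 72 microRNA rows were called (38 higher, 24 lower, median 1.09), and 9 of 13 structural RNAs (7 higher, 2 lower, median 1.07), and the cause was not tested. The values of rows up to 400 bases also depend on the worth of a read. No paired analysis was possible because each genotype has 1 library and the labels give no replicate numbers.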
